A study of Saccharomyces cerevisiae with 8 samples.

Results

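The transcriptome of the yeast strain labelled rnt1d was set against that of the strain labelled wild type, both grown at 26 C. The comparison used the 2 rnt1d and 2 wild type arrays of that temperature, 4 of the 8 arrays of the study, and all 9275 probe sets on them that are not Affymetrix controls. The study recorded total RNA of Saccharomyces cerevisiae on Affymetrix arrays, 1 array per sample, and its title concerns processing signals of small nucleolar RNAs (snoRNAs) that depend on RNase III. The labels call the 2 arrays of each group biological replicates, and give exponentially growing cells. The growth protocol gives complete medium that either held or lacked leucine, the design gives rich medium, and no array is tied to a medium. Beyond wild type and rnt1d at 26 C, no allele, marker, mating type or strain background of these cells is named in the sources used here.

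RNT1 is the gene of yeast RNase III, which cuts double-stranded stem-loops of RNA in the nucleus. It trims the 3' end of the ribosomal RNA precursor, releases snoRNAs and some snRNAs from longer precursors, and cleaves a number of mRNAs. Cells without it grow slowly. The transcripts nearest to that role, the snoRNAs, and the iron and phosphate regulons are given here only as counts, and the rest of the genome is described.

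On the RNT1 probe set the normalised signals were 181 and 149 on the wild type arrays but 1.31 and 2.03 on the rnt1d arrays, where they were not above background. RNT1 was at least 20.6-fold lower in rnt1d (limma, adjusted p = 0.000939). Of the 10 genes that lie next to RNT1 on chromosome XIII, 5 on each side, 8 were measured and 2 were lower, YHM2 and ZRC1. At 37 C the RNT1 signals went against the labels, with 71.4 on the array labelled rnt1d and 1.26 on the array labelled rnt1ts. Those arrays entered the common normalisation but no group of this comparison, and calls were 510 in place of 509 when the 4 arrays at 26 C were normalised by themselves.

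The arrays of a group resembled each other more than those of the other group. Spearman correlations over probe sets were 0.976 between the wild type arrays and 0.971 between the rnt1d arrays, against 0.928 to 0.946 between groups. A hybridisation control, CreX, had deposited signals of 588 to 858 on replicate 2 of both groups and under 10 on every other array. Another control, BioDn-3, had 371 and 253 on replicate 2 of wild type and rnt1d, and 6.35 to 32.4 on the other arrays. The arrays numbered 2 thus differ from those numbered 1 in controls that are added to the sample. Entering that difference as a term, a choice made after seeing the data, raised the calls from 509 to 1425 probe sets (15.4%), and all 509 were among them. The term did not alter the log2 changes and left 1 residual degree of freedom. The added calls thus rest on the estimated spread alone, not on larger changes. By gene the calls rose from 389 to 1059 (18.7%), with 10.1% of all genes higher and 8.65% lower. For several lists below the counts with the term are given as well, to be read beside these shares. Between 80.9% and 84.3% of probe sets were above background on the 4 arrays, background being the highest of 19 controls for non-yeast transcripts.

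Most transcripts moved little. Of 5656 genes, each represented by its brightest probe set, 74.5% differed by less than 0.5 on the log2 scale, and the median absolute log2 difference between replicate arrays was 0.169 in wild type and 0.208 in rnt1d. Changes are given as log2 of rnt1d over wild type after a pseudocount of 16 was added to the signals, which understates the change of dim transcripts, and were tested with limma and Benjamini-Hochberg adjustment. At an adjusted p under 0.05, 328 probe sets were higher (3.54%) and 181 lower (1.95%) in rnt1d, together 5.49% of those tested. By gene, 241 (4.26%) rose and 148 (2.62%) fell, together 6.88%. Outside the lists of snoRNAs, other stable RNAs, iron and phosphate genes, 201 rose and 134 fell of 5523. On those lists, 16 of 17 snoRNAs of polycistronic precursors rose and 0 fell, 10 of 38 iron genes rose and 1 fell, and 11 of 26 phosphate genes fell and 1 rose. SIT1 and FTR1 of the iron genes that rose lie on chromosome V. The smallest difference called was 0.56 and the median of those called was 1.24, both as absolute log2 values, so smaller changes were largely out of reach with 2 arrays a group. The balance of directions depended on the scaling. Median scaling gave 228 higher and 336 lower probe sets, trimmed mean scaling 563 and 146, and the deposited scale 69 and 31. Over all probe sets the median change was -0.03 in the main scaling, -0.08 with median scaling, 0.10 with trimmed mean scaling and 0.12 on the deposited scale. With median scaling the brightest of 5 equal signal classes had a median of -0.48 and the dimmest -0.01. In the main scaling these were -0.10 and -0.003, and on the deposited scale -0.12 and 0.04. List medians given below with median scaling are therefore lower for bright genes as a class. Without wild type replicate 1 or 2 the calls numbered 41 and 33, and without rnt1d replicate 1 or 2 they numbered 241 and 97. These fits leave an arm of 1 array, assumed to vary like the other group, and 1 residual degree of freedom, so a lost call does not show that a change rests on the array left out. Of the called genes named here, 4 (RNT1, OLI1, COX1 and ATP6) were called whichever array was left out. P-values rest on the spread between these 2 samples of each group, which limma moderates toward a trend over all probe sets tested. Counts at an unadjusted p under 0.05 are given below for some lists. The share of all genes at that cut was not counted, so they do not set a list apart.

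The called genes were spread unevenly over the genome, with chromosome V standing apart from the 15 other nuclear chromosomes. Of 252 measured protein-coding genes on chromosome V, 78 rose and 2 fell, against 3.86% higher and 2.48% lower, 6.34% in all, among protein-coding genes of the whole genome. On the other nuclear chromosomes together 134 of 5215 rose and 125 fell. Chromosome V held 4.59% of the measured protein-coding genes and 36.8% of the 212 that were called higher. The shift reached beyond the called genes. The log2 change was positive for 230 of the 252 (91.3%), with a median of 0.68, equal to 1.60-fold, and quartiles of 0.33 and 0.96. The medians of the 15 other chromosomes ran from -0.11 on chromosome X to 0.00 on chromosome I.

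Both rnt1d arrays showed the shift. Relative to the wild type mean, the median of the chromosome V genes was 0.64 and 0.68 on the rnt1d arrays and -0.01 and 0.01 on the wild type arrays, and the groups did not overlap. On the same 4 arrays the medians of the other nuclear chromosomes lay between -0.19 and 0.07. An exact permutation test over 2 against 2 arrays gives a two-sided p of 0.333 for this difference, which is the smallest that design allows. Outside the comparison, the chromosome V median was 0.62 on the array labelled rnt1ts at 37 C, whose RNT1 signal was not above background. It was between -0.02 and 0.00 on the arrays labelled rnt1ts at 26 C, wild type at 37 C and rnt1d at 37 C. The array labelled rnt1ts at 37 C correlated with rnt1d replicate 1 at 26 C at 0.985 (Spearman), above the correlation of the 2 rnt1d arrays with each other.

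**Figure D1:**
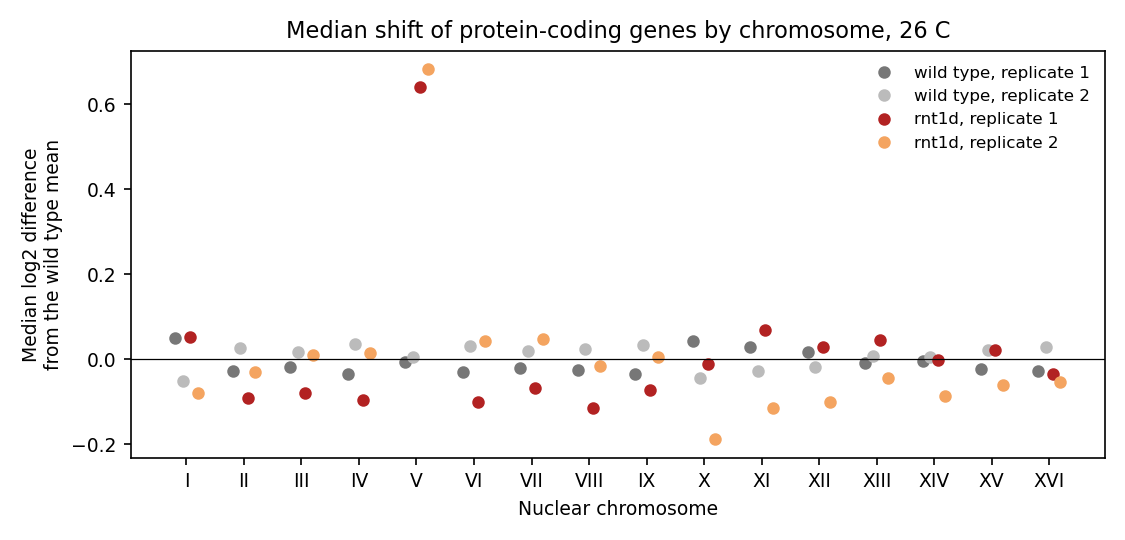
Median log2 difference from the wild type mean over the protein-coding genes of each nuclear chromosome, for the 4 arrays at 26 C; each point is 1 array, with wild type in greys and rnt1d in reds. On chromosome V the rnt1d arrays stand at 0.64 and 0.68, and every other point lies between -0.19 and 0.07.

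Along chromosome V the shift ran from end to end. The left arm had a median of 0.59 with 20 of 66 genes higher, and the right arm 0.71 with 58 of 186 higher. When the chromosome was divided into 12 blocks of adjacent measured genes, 20 in each but 16 in the last, the block medians ran from 0.59 to 0.84 and each full block held 4 to 9 genes called higher. The 235 full blocks on the other nuclear chromosomes had medians from -0.36 to 0.25, and none held more than 3 genes called higher. The difference between the median of chromosome V and that of the other nuclear chromosomes was 0.72 in log2 units and stayed between 0.64 and 0.87 under every other setting tried, whereas the count of 78 was lower with an array left out. It was 0 by limma when either wild type array was left out (122 and 130 higher at an unadjusted p under 0.05) and 28 and 5 without rnt1d replicate 1 and 2, in fits with 1 residual degree of freedom. The number of copies of chromosome V in these cells was not measured by the arrays, and its part in the shift was not tested.

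**Figure D2:**
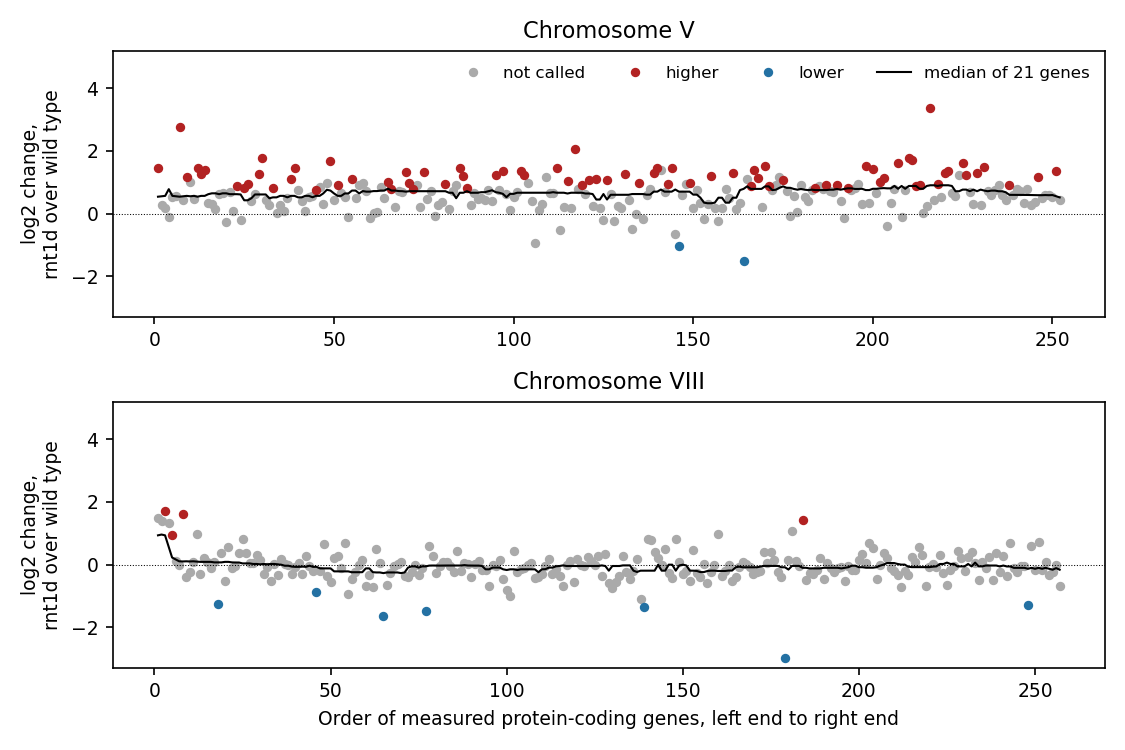
Log2 change of rnt1d over wild type at 26 C for each measured protein-coding gene, in gene order along chromosomes V (252 genes) and VIII (257 genes, close to V in number); red and blue points are genes called higher and lower, grey points were not called, and the black line is a running median of 21 genes. On chromosome V the running median stays above 0 throughout, and on chromosome VIII it lies near 0 except at the left end.

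The genes of chromosome V that rose have varied roles. BUR6, a subunit of the transcription regulator NC2, had signals of 157 and 155 in wild type against 478 and 545 in rnt1d. UBP5, a ubiquitin protease, had 88.3 and 91.4 against 380 and 312. Neither pair of groups overlapped, but 207 of the 252 measured genes of the chromosome were higher without overlap. The log2 changes were 1.61 (SE 0.15) and 1.77 (SE 0.17), with an adjusted p of 0.00734 for both (limma). PUP3, a proteasome subunit, rose by 1.15 and was the 1 gene called of 40 for the proteasome. NUG1, a GTPase of ribosome assembly, rose by 0.80 against a median of -0.44 for 120 ribosome biogenesis genes. RNR1, a subunit of ribonucleotide reductase, rose from 722 and 696 to 1366 and 1377, and CAN1, the arginine permease, from 109 and 80.2 to 251 and 217. Other members that rose include SPI1 (3.37), ACA1 (2.06), CYC7 (1.78), PXP1 (1.67), AFG3 (1.47), PRB1 (1.44) and ICL1 (1.31), all log2 changes. The fall of 2 genes ran against the rest of the chromosome. MET6, methionine synthase, fell from 766 and 808 to 234 and 296, and ALD5, a mitochondrial aldehyde dehydrogenase, from 312 and 309 to 153 and 136. In the descriptions that follow, members of a pathway that lie on chromosome V are marked as such.

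The deepest falls of the comparison were in transcripts of the mitochondrial genome. Of 19 genes of the mitochondrial genome 9 fell and 0 rose, and the change was negative for all 19. Of the 19, 9 were above background on both wild type arrays, and 0 on both rnt1d arrays. Genes near background in wild type had little room to be called lower. OLI1, subunit c of the ATP synthase, had 2353 and 2542 in wild type against 0.433 and 0.676 in rnt1d, COX1 1212 and 1288 against 4.28 and 5.73, and ATP6 541 and 647 against 2.39 and 0.762. The rnt1d signals of all 3 were not above background, so these transcripts were at least 307-fold, 157-fold and 74.2-fold lower. A second probe set of OLI1, not part of the count, did not pass the test. The content of mitochondrial DNA was not measured.

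Nuclear genes of the respiratory chain and the ATP synthase fell too. Of 41 measured, 13 fell and 1 rose, and the median log2 change was -0.60 (-0.94 with median scaling), against -0.02 for all genes. With the term for the hybridisation control 22 were lower and 3 higher. COX4, a subunit of cytochrome c oxidase, had signals of 588 and 664 in wild type against 167 and 153 in rnt1d (log2 change -1.86, SE 0.15, limma adjusted p = 0.00417). The subunits of the ATP synthase head followed, with log2 changes of -1.35 for ATP16, -1.30 for ATP3, -1.01 for ATP2 and -0.93 for ATP1. INH1, the inhibitor of the same enzyme, fell by 1.92 and SDH1, the flavoprotein of succinate dehydrogenase, by 1.18. COR1, QCR2, QCR6 and QCR10 of the cytochrome bc1 complex changed by -1.17, -0.85, -0.77 and -0.87. The member that rose was CYC7, the minor isoform of cytochrome c, on chromosome V. COX26, a small protein of respiratory supercomplexes that was not on the list, rose from 62.0 and 80.8 to 358 and 397 (log2 change 2.18, SE 0.18, adjusted p = 0.00417).

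Of 37 measured genes for assembly of the chain 3 rose and 0 fell, 8.11% against 6.88% of all genes. These were COX15 and OXA1, which make heme A and insert proteins into the inner membrane and lie on chromosome V, and CYC3, the heme lyase of cytochrome c, on chromosome I. CYC3 had 460 and 435 in wild type against 991 and 967 in rnt1d (log2 change 1.10, SE 0.14, adjusted p = 0.0156). Among 70 mitochondrial ribosomal protein genes RSM18, on chromosome V, and MRPS16 rose by 1.12 and 0.76, and 0 fell. Of 39 genes for import, folding and turnover of mitochondrial proteins, AFG3 alone was called, again on chromosome V.

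Carriers of the inner membrane moved in both directions. Of 27 measured genes for mitochondrial carriers and the porin, 6 fell and 2 rose, 29.6% against 6.88% of all genes. GGC1, the GTP/GDP carrier, had 476 and 506 in wild type against 122 and 149 in rnt1d, and OAC1, the oxaloacetate carrier, 1282 and 1197 against 443 and 235. The log2 changes were -1.75 (SE 0.16) and -1.89 (SE 0.29). YHM2, a citrate carrier, MIR1, the phosphate carrier, and POR1, the outer membrane porin, had changes of -1.08, -0.84 and -0.84, and ORT1, the ornithine carrier, fell from 92.5 and 93.5 to 33.2 and 44.8. PIC2, on chromosome V, and CRC1, the carnitine carrier, each rose by 1.09.

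In the tricarboxylic acid cycle 2 of 23 measured genes rose and 3 fell, 21.7% against 6.88% of all genes. IDH1 and IDH2 encode the subunits of NAD-dependent isocitrate dehydrogenase. IDH1 rose from 190 and 240 to 572 and 690, and IDH2 from 616 and 490 to 1265 and 1584, log2 changes of 1.49 (SE 0.19) and 1.34 (SE 0.19). SDH1, KGD2, a subunit of 2-oxoglutarate dehydrogenase, and IDP1, the mitochondrial NADP-dependent isozyme, fell by 1.18, 0.95 and 0.95. The 18 remaining genes of the cycle measured were not called. IDH1 and IDH2 also belong to the retrograde response, a programme known to be activated in yeast with failing mitochondria. Of its 17 measured genes 5 rose and 0 fell (29.4% against 6.88% of all genes), with a median of 0.52, or 0.31 with median scaling. PRM10 rose from 95.5 and 101 to 331 and 313, and CRC1 and YEL073C, the last on chromosome V, were also called. CIT2, the peroxisomal citrate synthase and the usual marker of this response, chosen for mention after its values were seen, was not called, with 217 and 371 in wild type against 403 and 424 in rnt1d (log2 change 0.52, adjusted p = 0.295).

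**Figure D3:**
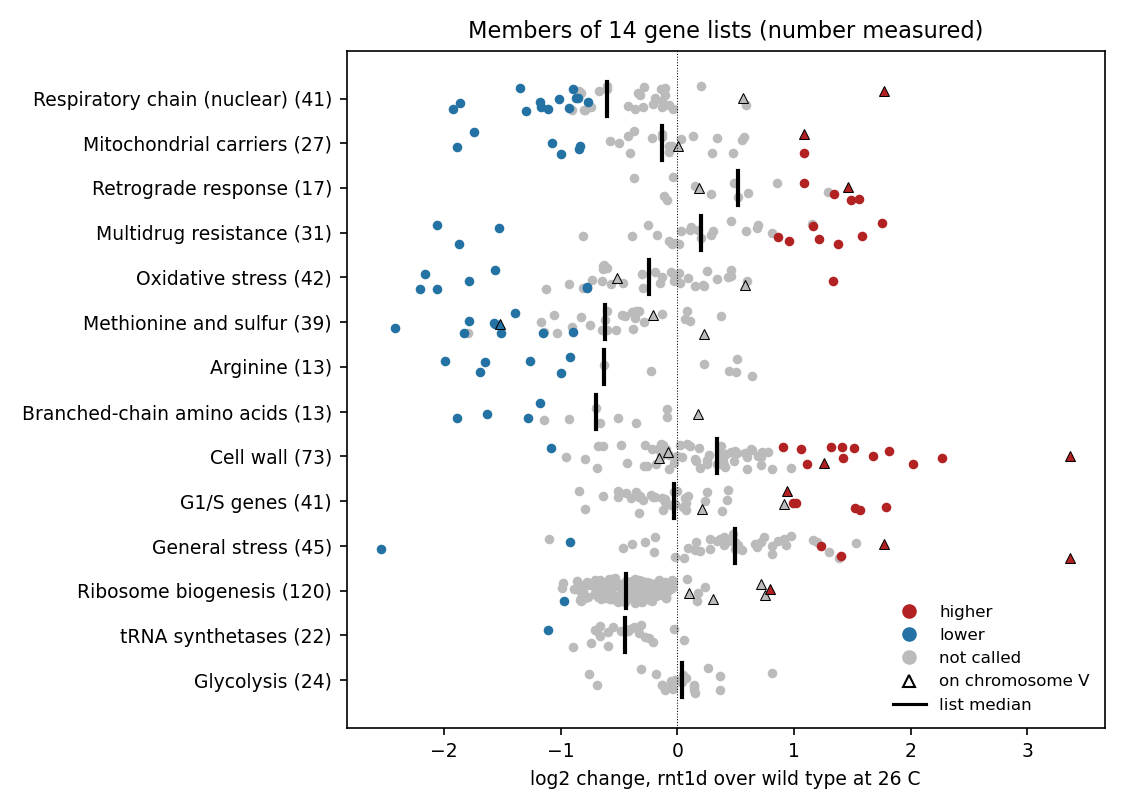
Log2 change of rnt1d over wild type at 26 C for every measured member of 14 gene lists, with the number measured in parentheses; each point is 1 gene, coloured by its call, triangles lie on chromosome V, the bar is the list median, and the vertical spread within a row has no meaning. The respiratory chain, methionine and branched-chain lists lie mostly left of 0 and the retrograde and general stress lists mostly right of it.

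Drug efflux transcripts rose in part. Pdr1 and Pdr3, zinc cluster activators, are known to control a network of ABC transporters and lipid-handling proteins, and Pdr3 is known for induction in cells without mitochondrial DNA. Of 31 multidrug resistance genes 7 rose and 3 fell, and none of the called members lies on chromosome V. RTA1, of a family of lipid-translocating membrane proteins, had 10.9 and 14.0 in wild type against 79.9 and 79.7 in rnt1d (log2 change 1.75, SE 0.17, adjusted p = 0.00818). The ABC transporters PDR15, PDR10 and PDR5 changed by 1.58, 1.22 and 0.86. The signals of PDR5 were 997 and 898 in wild type against 1823 and 1650 in rnt1d. Its 7 probe sets had log2 changes from 0.16 to 1.71 and the brightest alone was called. CIS1, YGR035C and LAF1 rose by 1.38, 1.16 and 0.96. The activator gene PDR3, chosen after its values were seen, had 83.6 and 50.6 in wild type against 165 and 166 in rnt1d and did not pass the test (log2 change 1.16, adjusted p = 0.0506).

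Of the 3 members that fell, ATR1 and QDR2, exporters of the major facilitator superfamily, went from 336 and 391 to 88.3 and 62.9 and from 72.8 and 103 to 17.0 and 22.3. GRE2, a methylglyoxal reductase, fell by 1.87. Some genes of oxidative defence and detoxification also fell, with 7 lower and 1 higher of 42 and a median of -0.24, or -0.55 with median scaling. HSP31, a glyoxalase of the DJ-1 family, had 1354 and 1299 in wild type against 206 and 362 in rnt1d. GTT2, a glutathione S-transferase, had 295 and 365 against 61.5 and 59.9. The log2 changes were -2.21 (SE 0.26, limma adjusted p = 0.0135) and -2.17 (SE 0.18, limma adjusted p = 0.00429). OYE3, GSH1, TRR1 and AAD6 fell by 1.56, 1.79, 0.78 and 0.77, and GPX1, a glutathione peroxidase, rose by 1.33. YNL134C, on the general stress list, fell from 704 and 867 to 107 and 137. By log2 change with the pseudocount this was the deepest fall among nuclear genes outside the RNA, iron and phosphate lists, apart from RNT1. That scale understates the fall of dimmer genes such as RPI1, given below. With the term for the hybridisation control 17 of the 42 were lower and 2 higher, where 8.65% and 10.1% of all genes were called in these directions.

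**Figure D4:**
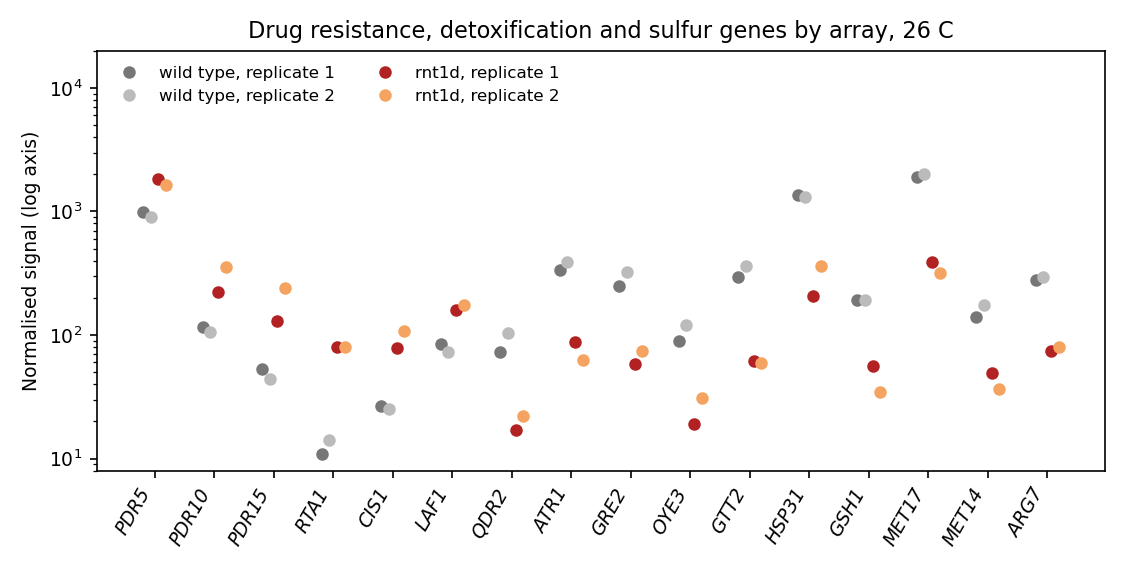
Normalised signal on each of the 4 arrays at 26 C for 16 genes of drug resistance, detoxification, sulfur and arginine metabolism, on a log axis; each point is 1 array. For every gene shown both rnt1d points lie on the same side of both wild type points, above them for PDR5, PDR10, PDR15, RTA1, CIS1 and LAF1 and below them for the other 10. The 16 were picked from genes called in this comparison, so their separation is no further evidence of a change.

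GSH1, which makes the precursor of glutathione, connects this group with sulfur metabolism. Of 39 genes for sulfate assimilation, methionine, cysteine and glutathione, 10 fell and 0 rose (25.6% against 6.88% of all genes), with a median of -0.62. With the term for the hybridisation control 20 were lower, a direction in which 8.65% of all genes were called. MET17, the enzyme that fixes sulfide into homocysteine, had the largest change, from 1914 and 2014 to 392 and 317 (log2 change -2.43, SE 0.16, adjusted p = 0.00209). Genes before and after that step fell too. MET14 and MET16, for the activation and reduction of sulfate, changed by -1.56 and -1.57, MET10, for sulfite reduction, by -1.51, MET2, which acetylates homoserine, by -1.83, and HOM2, earlier in the homoserine branch, by -1.39. MET6, on chromosome V, SAM2, which makes S-adenosylmethionine, and MUP1, the high-affinity methionine permease, had -1.52, -0.90 and -1.15. OPT1, a transporter of glutathione and oligopeptides, was not on the list and fell by 1.65.

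Genes for the steps from ornithine to arginine, ARG3, ARG1 and ARG4, all fell. Of 13 measured genes 6 fell and 0 rose (46.2% against 6.88% of all genes), with a median of -0.63, or -0.33 at the deposited scale. ARG1 fell from 598 and 525 to 123 and 135, ARG4 from 560 and 610 to 168 and 182, and ARG7 from 277 and 294 to 74.4 and 80.1. ARG3 changed by -0.92, ORT1 as given above, and CAR2, which degrades ornithine, by -1.26. For leucine, isoleucine and valine 4 of 13 fell (LEU2, LEU9, BAT1 and OAC1) and 0 rose, with a median of -0.69, or -1.24 with median scaling. Of 3 probe sets of LEU2, with changes from -1.63 to -1.20, 1 was called. BAT1, the mitochondrial branched-chain transaminase, had 1470 and 1411 against 726 and 468. ARO4 and TRP4 of aromatic amino acid synthesis and LYS9 of lysine synthesis fell, TRP1 rose by 1.26, and none of 7 histidine genes was called by limma (2 lower at an unadjusted p under 0.05). The part of the medium in these changes was not tested, since the labels tie no array to a medium that lacked leucine.

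Of 30 genes for glutamate, proline, glycine, threonine and serine metabolism 5 rose and 0 fell, while 20 of the 30 had a negative change and the median was -0.19 (-0.40 with median scaling and -0.04 at the deposited scale). CHA1, the serine and threonine deaminase, had 5.18 and 19.1 in wild type, above background on 1 of 2 arrays, and 73.7 and 94.7 in rnt1d. GCV3 and GCV1, subunits of the mitochondrial glycine decarboxylase, rose by 1.24 and 1.33, GDH2, which releases ammonia from glutamate, by 1.46, and ALT1, an alanine transaminase, by 1.10. MIS1, the mitochondrial enzyme of one-carbon folate metabolism and on no list, fell from 283 and 275 to 64.0 and 44.6 (log2 change -2.08, SE 0.19, adjusted p = 0.00678).

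Vitamin and cofactor genes were split. Of 37 genes 4 fell and 1 rose, 13.5% against 6.88% of all genes. BNA1, of NAD synthesis from tryptophan, fell from 970 and 1002 to 275 and 225, and BNA4 of the same pathway by 1.02. TNA1, the nicotinic acid permease, fell by 1.01 and BIO2, biotin synthase, by 1.53. THI4, of thiamine synthesis, rose by 1.44.

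Some cell wall genes rose. Of 73 measured 13 rose and 1 fell, 19.2% against 6.88% of all genes, and 2 of the 13, SPI1 and UTR2, lie on chromosome V. The list median was 0.34, and -0.01 with median scaling. With the term for the hybridisation control 22 were higher and 6 lower, where 10.1% and 8.65% of all genes were called in these directions. YPS3, an aspartyl protease of the cell surface, had 105 and 103 in wild type against 368 and 369 in rnt1d (log2 change 1.68, SE 0.14, adjusted p = 0.00518). CRH1, a chitin transglycosylase, rose from 514 and 509 to 1296 and 1721, CHS7, needed for export of chitin synthase, from 211 and 230 to 535 and 699, and SCW10, a glucanase-like protein, from 501 and 537 to 1440 and 1205, with a second probe set at 0.51 that was not called. PIR3, PRM5, YPS1 and PST1, all known targets of the cell integrity pathway, rose by 2.27, 1.82, 1.06 and 1.11, and GSC2, a subunit of glucan synthase, by 2.02 with 2 of its 7 probe sets called. GAS3 fell by 1.08. PMT1, a protein O-mannosyltransferase of the glycosylation list, fell from 451 and 398 to 135 and 154.

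Among the cell cycle lists, that of the G1/S transition was the largest and held the most calls. Of 41 genes of the G1/S transition 6 rose and 0 fell, 14.6% against 6.88% of all genes. The list as a whole was not shifted up, with a median of -0.03 (0.20 at the deposited scale) and a negative change for 23 of the 41. SVS1, a cell wall protein, rose from 461 and 558 to 1765 and 1827, PCL1, a cyclin of Pho85, from 111 and 118 to 355 and 384, and GIC2, an effector of Cdc42, from 213 and 285 to 646 and 846. TOS6, YOX1 and RNR1 rose by 1.02, 0.99 and 0.94, the last on chromosome V. Of 13 M/G1 genes FAR1 and TEC1 fell (15.4%), 10 had a negative change and 7 were lower at an unadjusted p under 0.05. No share of all genes at that cut was counted. The median of the 13 was -0.59, or -0.26 at the deposited scale, and 6 were lower with the term for the hybridisation control. Of 30 genes of the G2/M cluster and 10 histone and histone regulator genes none was called by limma (2 lower in each list at an unadjusted p under 0.05). In the mating group, MFA1, MFA2 and BAR1 fell among 7 a-specific genes. BAR1, the protease that degrades alpha factor, had 476 and 447 in wild type against 131 and 160 in rnt1d. SST2, FAR1 and HO fell and PRM5 rose among 31 haploid and pheromone genes, and none of 5 alpha-specific genes was called by limma (1 higher at an unadjusted p under 0.05).

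Genes of protein synthesis lay below 0 with few calls. Of 120 ribosome biogenesis genes MAK5 fell and NUG1, on chromosome V, rose, with a median of -0.44 (-0.23 at the deposited scale), and of 22 cytosolic tRNA synthetases GLN4 fell, with a median of -0.45 (-0.91 with median scaling). With the term for the hybridisation control 28 and 10 of these were lower and 3 and 0 higher. SUI1 and SUI3, initiation factors, fell by 0.93 and 0.81. Among 80 ribosomal protein genes RPL7B, RPL9B and RPL22B fell and RPS22B rose; probe sets of RPL7B, RPL9B and RPS22B can read their near-identical paralogs, which makes these values uncertain. RPL22B had 487 and 530 in wild type against 154 and 170 in rnt1d. Of 91 tRNA genes 9 were lower and 0 higher, 9.89% against 6.88% of all genes called. Their median was -0.62 (-0.39 at the deposited scale), and 44 were lower with the term. tRNA families share sequence, and the sources used here do not say whether a probe set reads a mature or a precursor tRNA.

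Central carbon metabolism changed at few points. None of 24 glycolytic genes was called by limma (1 higher and 2 lower at an unadjusted p under 0.05). Their median was 0.04, or -0.51 with median scaling, under which the brightest of 5 signal classes of all probe sets had -0.48. HXT1, the low-affinity glucose transporter, fell from 705 and 511 to 231 and 219, while MTH1, a repressor of such transporters, and MIG3, on chromosome V, rose by 1.18 and 1.36. JEN1, the lactate permease, was not above background in wild type and at least 3.53-fold higher in rnt1d. CYB2, the mitochondrial lactate dehydrogenase on no list, rose from 46.9 and 78.4 to 282 and 296. ADR1, an activator of genes repressed by glucose, and ICL1, isocitrate lyase, on chromosome V, rose by 0.93 and 1.31. ALD6, the cytosolic acetaldehyde dehydrogenase, fell by 1.20 on 1 of its 2 probe sets, with -0.09 on the other, and RKI1 of the pentose phosphate pathway by 1.33. Of 45 general stress genes 4 rose, SPI1 and CYC7 on chromosome V, SSE2 and USV1, and 2 fell, YNL134C and YMR090W, with a median of 0.49. The median was 0.26 between the arrays numbered 1 and 0.69 between those numbered 2. With the term for the hybridisation control 17 of the 45 were higher and 3 lower. Of 41 genes on the heat shock and chaperone list HSP30, SSE2 and FES1 rose and 0 fell, 7.32% and so near the 6.88% of all genes. That list includes SBP1, which is not a chaperone gene and was matched through an alias.

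Lipid, zinc and vacuolar genes gave a handful of calls each. Of 47 genes for fatty acids and phospholipids 3 rose and 0 fell, 6.38% and so near the 6.88% of all genes. CHO1 makes phosphatidylserine, and OPI3 carries out later methylation steps on the way to phosphatidylcholine. OPI3, on chromosome X, had 402 and 385 in wild type against 1050 and 922 in rnt1d, and CHO1, on chromosome V, 280 and 321 against 713 and 738. SCS7, a sphingolipid hydroxylase, rose by 1.20. Among 27 zinc and copper genes ZPS1 and ZRG8, the latter on chromosome V, rose, and ZRT1, the high-affinity zinc transporter, and ZRC1, the vacuolar zinc transporter, fell. That is 14.8% of the 27, against 6.88% of all genes. The 4 probe sets of ZRT1 ran from -1.71 to 0.39 and 2 were called lower. In the vacuole list PRB1, proteinase B on chromosome V, rose and APE1 and LAP3, aminopeptidases, fell. That is 7.14% of the 42 measured, also near the share of all genes. APE1 went from 306 and 290 to 99.8 and 85.4.

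Genes near chromosome ends were called more often than inner genes. Leaving out chromosome V, 26 of the 191 outermost measured protein-coding genes, up to 10 from each end, were called (17 higher and 9 lower, 13.6%), against 4.57% of those more than 40 genes from an end. Of 8 subtelomeric COS genes COS4 and COS6 rose, with a median of 0.91 for the list. Of 10 seripauperin genes none was called by limma (5 higher at an unadjusted p under 0.05), at a median of 0.86. Both medians differed by replicate. They were 0.57 and 0.21 between the arrays numbered 1, and 1.24 and 1.08 between those numbered 2. With the term for the hybridisation control 5 COS and 4 seripauperin genes were higher. Members of both families are close copies, and their signals cannot be assigned to 1 gene. On the left end of chromosome VIII the outermost 4 measured genes, YHL048C-A, COS8, ARN2 and PAU13, which were chosen after their values were seen, had log2 changes of 1.48, 1.39, 1.71 and 1.31, of which ARN2, of the iron regulon, was called. The brightest of 3 probe sets of COS8 missed the threshold (limma, adjusted p = 0.0665) and the other 2 were called higher.

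Genes on no list made up 158 of the 389 called, with 118 higher and 40 lower. That is 4.32% of the 3658 measured on no list, against 6.88% of all genes and 11.6% of genes on a list. DPI8, a mitochondrial protein, had 97.8 and 166 in wild type against 1285 and 1587 in rnt1d (log2 change 3.32, SE 0.26, adjusted p = 0.00347). MNC1 rose from 59.9 and 59.6 to 299 and 303, and YAR068W, which shares sequence with other genes, from 45.7 and 28.2 to 300 and 592. RTS3, a phosphatase component, PRY2, a sterol-binding secreted protein, and YBR085C-A rose by 1.81, 1.46 and 1.64. RPI1, a transcriptional regulator, had 58.6 and 48.1 in wild type and was not above background in rnt1d, at least 6.66-fold lower. Of the 10 measured protein-coding genes next downstream, on the same strand, of a snoRNA or snRNA that rose, 2 rose and 0 fell. Of all protein-coding genes 3.86% rose. The 2 were PMD1 and TOS2, named after their values were seen, with log2 changes of 1.41 and 1.03. PMD1 lies on chromosome V, where 31.0% of genes rose. On the other strand 0 of 4 rose. After an RNA that was not called, 0 of 14 rose on the same strand and 1 of 15, PMD1 again, on the other. Counts this small do not set such genes apart. Of 2443 probe sets with no gene name in the annotation used here 54 were higher and 14 lower, 2.78% in all; their median wild type signal was 11.1, against 70.1 for probe sets of 1 gene, and the share of probe sets called ran from 0.809% in the dimmest of 5 equal signal classes to 11.9% in the brightest.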

How the data were processed

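The deposited values are intensity signals per probe set on a linear scale, which the authors made with MAS5, per the submitters' processing notes; the sources used here give no version, target intensity or annotation release. The file holds 9335 probe sets, 60 of them controls. The 8 arrays were not on a common scale (deposited medians of 31.0 to 69.5 on the 4 arrays at 26 C), so all were quantile-normalised together, in place of the deposited scale the design had assumed. Log2(signal + 16) was fitted with limma 3.58.1 in R 4.3.3 as 6 group means with a mean-variance trend. There are 2 residual degrees of freedom, and arrays that are alone in a group add none. Tests were two-sided with Benjamini-Hochberg adjustment over 9275 probe sets at 0.05. The procedure was tested on simulated data. Precision is limited by having 2 arrays a group.

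Probe sets were named from the platform annotation (6504 with 1 gene, 328 with several, 2443 unnamed), and all 5656 genes matched the RefSeq table of assembly R64, which gave chromosome and gene order. A gene was represented by the probe set with the highest mean over the 8 arrays, and 315 genes have several. A group was not above background where no array exceeded the highest of 19 controls for non-yeast transcripts. A fold of at least N divides the brighter group's mean by the larger of that bound and the dim signal, all averaged on the log2 scale.

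The members and the 69 measured gene lists were chosen with earlier results of these data known. Symbols that were not measured were matched through aliases. This placed SBP1 on the heat shock and chaperone list, and the protein-coding genes GTS1 and NTG1 on that of other stable RNAs. Genes were named by a rule: RNT1 and its neighbours, the 25 highest and 25 lowest called genes outside the RNA, iron and phosphate lists, up to 6 called members of each list by smallest p, all members of lists of 12 or fewer, and the smallest p on each chromosome and on no list. Genes named beyond it, the further called members of lists and of chromosome V among them, were chosen after their values were seen. Alternatives covered scaling, pseudocount, a filter on dim probe sets, the arrays in the fit, the variance trend, a replicate block and leaving out each array.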

Additional observations from a re-analysis of the deposited data

Results flagged for a closer look

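A control probe set for 25S ribosomal RNA, outside the tests, gave a signal of 5387 and 4411 on the rnt1d arrays, a mean of 4899, against 29.4 and 24.2 on the wild type arrays, a mean of 26.8. It was listed because it lies in data that no comparison of the report uses. The other 4 control probe sets of the same RNA ran from 1.74 to 58.5 in rnt1d and from 1.24 to 126 in wild type.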

How the results depend on the processing

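All 172 genes named kept their direction under every alternative that gave a value for them. Of the 167 named genes that were called, 138 remained so under median scaling, 147 under trimmed mean scaling, 19 at the deposited scale and 4 (RNT1, OLI1, COX1 and ATP6) when any 1 of the 4 arrays was left out, which leaves 1 residual degree of freedom. Against 509 calls (328 higher, 181 lower), the deposited scale gave 100 (69 and 31), the filter at the 25th percentile of signal 900 (552 and 348) and that at the 50th 766 (299 lower). Trimmed mean scaling gave 563 higher and median scaling 336 lower. Leaving out 1 array gave 33 to 241 calls, 23 to 149 higher and 10 to 92 lower. The term for the hybridisation control gave 1425 (784 and 641), in a fit with 1 residual degree of freedom. The replicate number as a block, also with 1 residual degree of freedom, gave 1439 (791 and 648). Same-numbered arrays deviated from their group means with a Pearson correlation of 0.311, but the labels do not say that a number marks a shared culture or day. On chromosome V, 78 genes called higher became 4 at the deposited scale, 49 under median scaling, 125 with trimmed mean scaling, 126 with the 25th percentile filter, 143 with the control term, 144 with the block, and 0 to 28 without 1 array. The median of chromosome V over the other nuclear chromosomes, 0.72, was 0.87 with a pseudocount of 1, 0.64 with 32 and 0.82 with the 50th percentile filter, and 0.66 to 0.73 without 1 array. With the probe sets of chromosome V left out of normalisation and fit, chosen after seeing the data, 361 of the 421 calls elsewhere remained. The cause of these differences was not tested. Probe sets near background are limited by their signal.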
